A study of Homo sapiens with 6 samples.

Results

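The genes described here encode the proteins of the cytosolic ribosome, 36 of the large subunit and 23 of the small subunit. They were chosen by name, with earlier results of these data known. Every gene whose symbol starts with RPL or RPS and a number was taken, with RPLP1, RPLP2 and FAU. The RPS6 kinases and pseudogenes were left out. That gave 59 of the 11963 genes with a probe set listed to a single symbol, and each was read from its brightest probe set. 55 of them, 33 large and 22 small, lay above the level at which genes were tested, a mean log2 signal that equals 12.97 units, against 7178 of all genes. RPL10L, RPL3L, RPLP2 and RPS4Y1 lay below it. A further 16 ribosomal protein symbols were listed only together with other genes on the same probe sets, and RPLP0, RPL5, RPL10, RPL13A, RPL26, RPL36A, RPS27A and RPSA were not analysed here.

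The cells were U87, an established human glioblastoma line. 3 arrays (IRE1dn) came from cells that expressed a dominant negative transgene of IRE1alpha, named in the labels as a single clone, U87 IRE1.NCK DN. 3 arrays (ctrl) came from U87 cells transfected with the empty plasmid, of which the labels speak as clones in the plural without tying one to an array. Both groups were kept for 16 h in DMEM with 10% fetal bovine serum and glutamine. The study compared them to find genes tied to tumour invasion and angiogenesis. The sources used here do not give the transgene's promoter, and with a single clone the transgene and the clone cannot be told apart. The labels do not say whether replicates are separate cultures, and the spread behind each p-value is that between these arrays and may be technical.

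Ribosomal proteins assemble with ribosomal RNA in the nucleolus, and the finished subunits translate messenger RNA in the cytosol. Their own messenger RNAs are among the most abundant of growing cells. Most begin with a terminal oligopyrimidine tract (TOP), a C at the first base followed by a run of C and T, through which mTOR signalling and LARP1 set their translation. IRE1alpha, encoded by ERN1, is an endoplasmic reticulum stress sensor that splices the XBP1 transcript and can degrade other transcripts.

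The start sites are shown first because most of these genes share the TOP tract and most of the paralogs searched here lack it. Each line gives 10 bases before and 20 bases from the annotated start, on the gene's strand, from RefSeq on GRCh38.p14. Capitals mark the unbroken run of C and T from the start. The first 5 are the genes of the standard set that fell in IRE1dn cells (values below), then follow members that did not pass the test and, last, paralogs, with the first of 2 listed starts for RPL26L1.
RPL36, chr19:5690285-5690314, plus strand: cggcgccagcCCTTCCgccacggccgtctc
RPS25, chr11:119018324-119018353, minus strand: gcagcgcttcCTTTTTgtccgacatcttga
RPL35A, chr3:197950180-197950209, plus strand: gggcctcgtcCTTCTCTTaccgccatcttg
RPS6, chr9:19380217-19380246, minus strand: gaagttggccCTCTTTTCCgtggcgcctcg
RPS9, chr19:54200848-54200877, plus strand: gcttccgcgcCTCTTTCTCagtgaccgggt
RPS14, chr5:150449720-150449749, minus strand: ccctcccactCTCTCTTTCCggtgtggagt
RPL24, chr3:101686699-101686728, minus strand: atgattctctCTTTCTTTTCgccatctttt
RPL39, chrX:119791611-119791640, minus strand: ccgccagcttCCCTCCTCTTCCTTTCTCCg
RPS27, chr1:153990752-153990781, plus strand: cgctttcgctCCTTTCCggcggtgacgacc
RPL26L1, chr5:172958719-172958748, plus strand: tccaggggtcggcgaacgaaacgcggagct
RPS27L, chr15:63157458-63157487, minus strand: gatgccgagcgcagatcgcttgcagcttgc
RPL36AL, chr14:49620607-49620636, minus strand: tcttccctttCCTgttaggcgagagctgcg

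A TOP start was searched as C at an annotated start followed by at least 4 bases that are each C or T, on the gene's strand, with any listed start of the gene accepted. It was found in 35 of the 51 members with a listed promoter (68.6%), against 988 of 15843 protein-coding genes (6.24%). 19 of 29 large and 16 of 22 small subunit genes had it. Of the genes of the standard set, without the paralogs, it was present in 5 of 5 that fell and in 28 of 40 that did not pass the test. Of the paralogs 1 of 5 had it, and neither RPL26L1 nor RPS27L did. The match describes annotated starts, which were not measured in these cells.

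Each array had been scaled to a trimmed mean of 100.03 units, with medians of 18.4 to 21.03 units. That mean leaves out 2% of the values at each end, so it does not make the brightest signals alike. The highest signal of an array lay between 3530 and 4389 units on 5 arrays and at 6716 units on IRE1dn array 3. That array also had the highest 3′ to 5′ signal ratio of ACTB, a measure of RNA integrity, at 1.64 against 1.09 to 1.21 on the others, while the ratio of GAPDH ran from 0.869 to 0.940 over all arrays. ERN1 lay below the level tested, so it does not check the labels, and XBP1 fell from 232 ± 31.3 to 123 ± 8.97 units (SD, n = 3 each; limma adjusted p = 0.0045). Of 11 glioma and astroglial markers measured, 5 were above the level, VIM, CD44, NES, SOX9 and SLC1A3, while GFAP, S100B, SOX2, OLIG2, AQP4 and FABP7 were below it. Of the 5, SOX9 (log2 change 2.64; limma adjusted p = 0.00080) and SLC1A3 (1.44; adjusted p = 0.0047) rose in IRE1dn cells. The summed signal of the 11 ran from 4432 to 4843 units in ctrl and from 5023 to 7816 units in IRE1dn cells. Most of that sum came from VIM and CD44, neither of which passed (limma adjusted p = 0.12 and 0.99). VIM alone read 5122 units on IRE1dn array 3. The part of these markers in the results below was not tested. None of 5 leukocyte or 4 endothelial markers and 2 of 3 neuron markers were above the level tested.

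Few transcripts of the cytosolic ribosome passed the test. None rose and 8 fell in IRE1dn cells (limma, Benjamini-Hochberg adjusted over all 7178 genes, threshold 0.05), which is 14.5% of the 55 tested. Of all genes 34.4% passed, 17.9% higher and 16.5% lower, so the share of members that fell was close to the background and the share that rose was below it. At an unadjusted p under 0.05, limma gave 0 members higher and 11 lower, against 1720 higher and 1584 lower of all 7178 genes. The members' median log2 change was -0.04, against 0.01 over all genes tested, with a range from -1.95 to 0.28. In 14 members (25.5%) the signals of the groups did not overlap, against 50.2% of all genes. In RNA of whole cultures, fewer cells with a transcript and less of it per cell cannot be told apart.

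**Figure D1:**
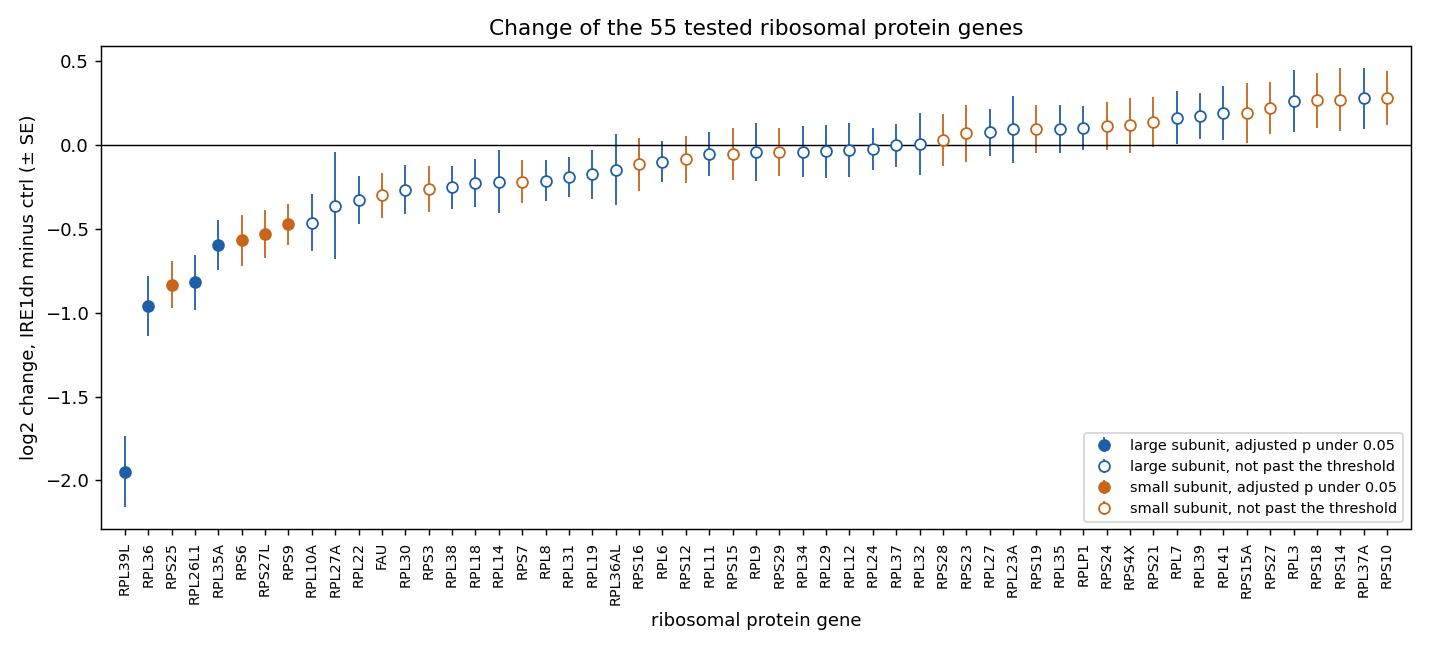
Log2 change (IRE1dn minus ctrl, with its SE from 3 arrays per group) of the 55 tested ribosomal protein genes, ordered by change, blue for the large and orange for the small subunit, filled where the adjusted p was under 0.05. The 8 filled points lie between -1.95 and -0.47, and the largest positive change is 0.28.

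4 of 33 large subunit genes (12.1%) and 4 of 22 small subunit genes (18.2%) fell, against 16.5% of all genes. The median log2 change was -0.05 in the large and -0.00 in the small subunit. Below zero lay 23 of 33 large and 11 of 22 small subunit genes, most of them by amounts that did not pass the test. After quantile normalization 32 large and 17 small subunit genes lay below zero, with medians of -0.19 and -0.20, so the order of the medians turned. Groups did not overlap in 9 large (27.3%) and 5 small subunit genes (22.7%), against 50.2% of all genes. No test of the difference between the subunits was made, because the members are not replicates of a condition.

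A small change was bounded in most members that did not pass. Of 47 such genes, 34 had a 95% interval from limma that lay within a 1.5-fold change in either direction, and 46 within a 2-fold change. The exception was RPL27A, whose probe set was dim at 24.1 to 55.98 units in ctrl and 22.04 to 33.4 units in IRE1dn cells. Among 345 other genes with a mean signal over 1000 units, 38.8% passed, 71 higher and 63 lower, against 6 of 52 members at that level (11.5%).

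The members moved together from array to array within a group. IRE1dn array 3 was the highest of the IRE1dn arrays in 43 of 55 members, where it was so in 36.1% of all genes. ctrl array 1 was the highest ctrl array in 45 of 55, where it was so in 31.1% of all genes. Measured against each gene's ctrl mean, 50 of 55 members were lower on IRE1dn array 1, 39 on IRE1dn array 2 and 19 on IRE1dn array 3. The median deviation was -0.19 on IRE1dn array 1, -0.10 on IRE1dn array 2 and 0.16 on IRE1dn array 3, and 0.11, -0.08 and -0.01 on the ctrl arrays.

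That pattern held in both subunits and partly in other bright genes. On IRE1dn array 3 the median deviation was 0.09 for the large and 0.26 for the small subunit, and 0.23 for the 345 other bright genes. On IRE1dn array 1 the bright genes stood at -0.00, while the large subunit stood at -0.25 and the small at -0.13. The part of the ACTB ratio and of the higher maximum signal of IRE1dn array 3 in these values was not tested. Without that array the members' median was -0.17 and 9 members fell, 5 of the large and 4 of the small subunit, which is 16.1% of the 56 members then tested against 9.93% of all genes. Without IRE1dn array 1 the median was 0.02.

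**Figure D2:**
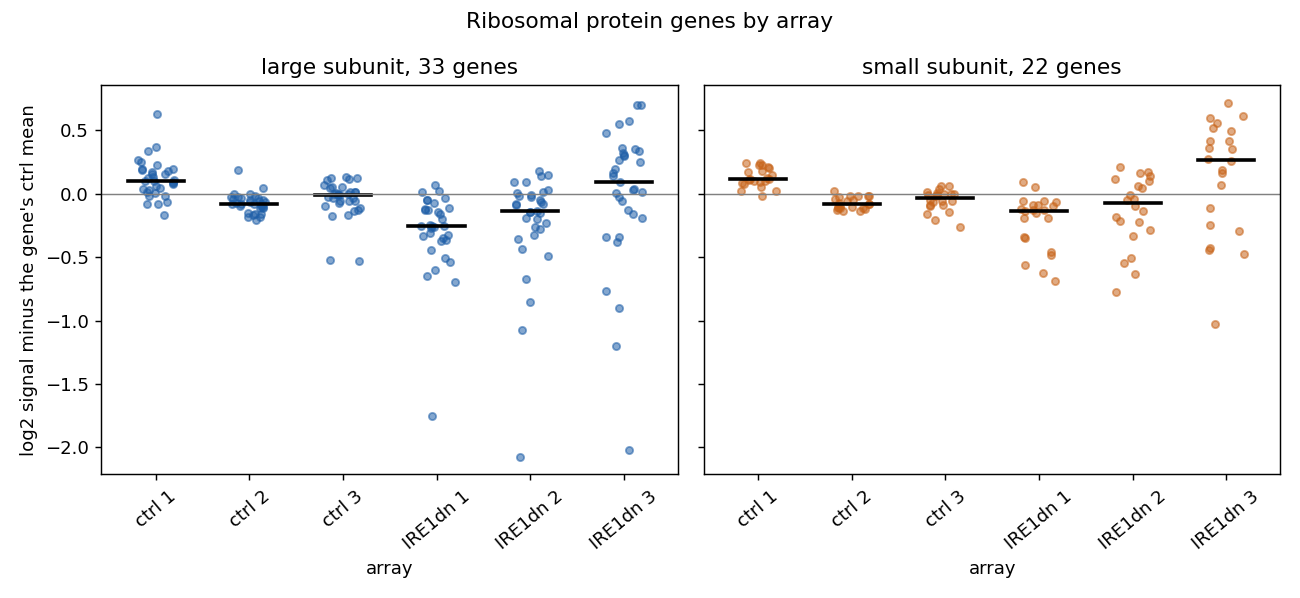
Each point is a tested ribosomal protein gene on an array, as the log2 signal minus that gene's mean over the 3 ctrl arrays, for 33 large (left) and 22 small (right) subunit genes, with black bars at the medians. The medians of IRE1dn array 3 (0.09 and 0.26) lie above those of the other IRE1dn arrays (-0.25 and -0.14 large, -0.13 and -0.07 small).

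How many members fell depended on the scaling and on the arrays used. After quantile normalization, which gives every array the same distribution of signals, 20 members fell, 12 large and 8 small, and all 8 found with the deposited scaling were among them. That was 36.4% of the members against 18.4% of all genes, with a member median of -0.19, and no member rose. Without IRE1dn array 2, 4 members fell, 1 of them in the small subunit, which is 7.27% against 9.84% of all genes. Without IRE1dn array 1, 6 fell, 2 of them in the small subunit, which is 10.7% against 12.5% of all genes. With these arrays left out the shares of all genes that were lower were thus also below the 16.5% found with 6 arrays.

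RPL39L carried the largest change. It is a paralog of RPL39, known mainly from male germ cells and some tumours. Its signal was 29.2, 23.1 and 24.02 units on the IRE1dn arrays and 121, 92.3 and 97.2 units on the ctrl arrays, so the groups were far apart. The ctrl mean was 4.06 times the IRE1dn mean, a log2 change of -1.95 (SE 0.21, adjusted p = 0.00027 in limma), and this was the member that fell at least 2-fold. The call held when any array was left out, with changes of -2.05 to -1.83. RPL39, its partner in the standard ribosome, had 3345, 3399 and 4074 units in IRE1dn and 2839, 3282 and 3471 units in ctrl cells. These overlapped, and the log2 change was 0.17 (SE 0.14, adjusted p = 0.35 in limma).

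RPL26L1 and RPS27L fell too. RPL26L1, a close copy of RPL26, had 533, 476 and 462 units in IRE1dn and 1038, 769.9 and 805 units in ctrl cells. The groups did not overlap, the log2 change was -0.82 (SE 0.16, adjusted p = 0.0050 in limma), and the call held without any one array. RPS27L, a p53-induced paralog of RPS27, had 1432, 1445 and 1521 units in IRE1dn and 2504, 1999 and 1887 units in ctrl cells. It fell by 0.53 on the log2 scale (SE 0.14, adjusted p = 0.019 in limma), without overlap, but did not pass without IRE1dn array 1 (adjusted p = 0.055) or array 2 (adjusted p = 0.079).

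RPS27, the partner of RPS27L, did not pass. It had 2569, 3081 and 3811 units in IRE1dn and 2705, 2521 and 2788 units in ctrl cells. The groups overlapped and the log2 change was 0.22 (SE 0.16, adjusted p = 0.30 in limma). RPL36AL, a paralog of RPL36A, had overlapping signals of 1116 to 1206 and 888 to 1617 units and a log2 change of -0.15 (SE 0.21, adjusted p = 0.62 in limma). RPL3L, the striated muscle paralog of RPL3, and RPL10L, the testis paralog of RPL10, were both dim. RPL10L read 2.98 to 12.5 units in IRE1dn and 17.04 to 21.8 units in ctrl cells, with a mean log2 signal that equals 11.6 units, and RPL3L read at most 3.48 units on any array.

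With the paralogs left out, the standard set had 51 tested genes, of which 5 fell, 2 large and 3 small. That is 9.8%, below the 16.5% of all genes that were lower. Of the 4 paralogs tested 3 fell, and so few genes give no share to set against the standard set. RPL3 and RPS4X, the partners of RPL3L and RPS4Y1, and RPL7 and RPL22, whose paralogs RPL7L1 and RPL22L1 were not analysed here, had log2 changes of 0.26, 0.12, 0.16 and -0.33 in that order, and none passed the test (limma adjusted p from 0.10 to 0.61).

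In the large subunit, RPL36 and RPL35A fell besides the paralogs. RPL36 had 1012, 732 and 669 units in IRE1dn and 1715, 1441 and 1478 units in ctrl cells. Every IRE1dn array was below every ctrl array, with a ctrl mean 1.92 times the IRE1dn mean, a log2 change of -0.96 (SE 0.18, adjusted p = 0.0036 in limma), and the call held without any one array. RPL35A, which is mutated in some families with Diamond-Blackfan anaemia, had 1651, 1319 and 1231 units in IRE1dn and 1987, 2061 and 2265 units in ctrl cells. It fell by 0.60 on the log2 scale (SE 0.15, adjusted p = 0.013 in limma), without overlap. The call ended without IRE1dn array 2 (adjusted p = 0.066), and the mean over its 3 probe sets, the other 2 of them below 8 units on every array, gave 0.31.

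In the small subunit, RPS25, RPS6 and RPS9 fell besides the paralog. RPS25, which some viral internal ribosome entry sites need, had 1097, 1031 and 868 units in IRE1dn and 1872, 1749 and 1692 units in ctrl cells. The groups lay far apart, with a log2 change of -0.83 (SE 0.14, adjusted p = 0.0024 in limma) that held without any one array. RPS6, the substrate of the S6 kinases, had 1998, 1996 and 2275 units in IRE1dn and 3652, 3137 and 2579 units in ctrl cells. The highest IRE1dn array lay just below the lowest ctrl array, and the log2 change was -0.57 (SE 0.15, adjusted p = 0.018 in limma). All 3 bright probe sets of RPS6 were lower, by log2 changes of -0.61 to -0.44. Its call ended without IRE1dn array 1 (adjusted p = 0.055), IRE1dn array 2 (adjusted p = 0.077) or ctrl array 1 (adjusted p = 0.055).

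RPS9, the counterpart of bacterial S4, which binds small subunit ribosomal RNA early in assembly, had 1395, 1368 and 1451 units in IRE1dn and 2019, 1869 and 1961 units in ctrl cells. The arrays of each group lay close together and did not overlap, with a log2 change of -0.47 (SE 0.12, adjusted p = 0.016 in limma). The call ended without IRE1dn array 2 (adjusted p = 0.083). A second RPS9 probe set read 514, 344 and 351.2 units in IRE1dn and 1944, 1341 and 1287 units in ctrl cells, a log2 change of -1.91. The direction was shared, while the size differed widely between the probe sets.

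**Figure D3:**
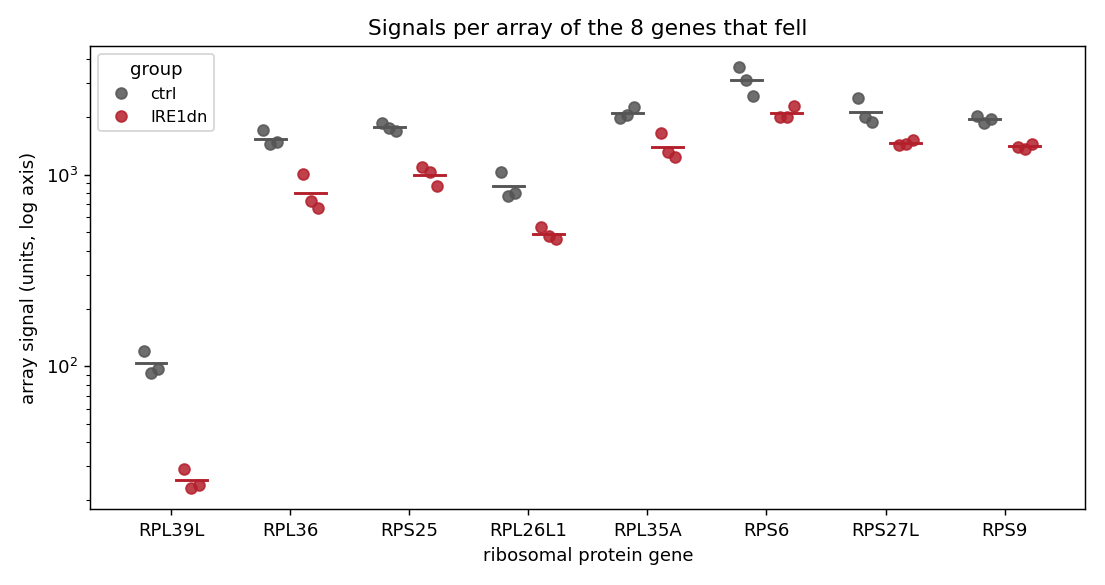
Array signal in scaled units (log axis) of the 8 ribosomal protein genes that fell. Grey points are the 3 ctrl and red points the 3 IRE1dn arrays, with bars at the mean of the untransformed signals. In every gene the IRE1dn points lie below the ctrl points, with the widest gap in RPL39L (23.1 to 29.2 against 92.3 to 121 units).

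Just outside the threshold was RPL10A, a large subunit protein, chosen here after its values were seen. It had 1065, 1076 and 1163 units in IRE1dn and 1952, 1335 and 1339 units in ctrl cells, without overlap, and a log2 change of -0.46 (SE 0.17, adjusted p = 0.061 in limma).

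RPLP1 and RPL11, named for other roles in the ribosome or outside it, did not pass the test. RPLP1, of the stalk that recruits elongation factors, had a log2 change of 0.10 (SE 0.13, adjusted p = 0.57 in limma), and the probe set of its partner RPLP2 was too dim to test. RPL11, which binds MDM2 together with RPL5, had 1982, 2198 and 2425 units in IRE1dn and 2418, 2147 and 2279 units in ctrl cells. These overlapped fully, with a log2 change of -0.05 (SE 0.13, adjusted p = 0.78 in limma).

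RPS19 and RPS14, lost by mutation or deletion in Diamond-Blackfan anaemia and in the 5q- syndrome, had log2 changes of 0.10 (SE 0.14; limma adjusted p = 0.64) and 0.27 (SE 0.19; limma adjusted p = 0.29). For RPS14 the signals were 2806, 3284 and 4820 units in IRE1dn and 3145, 2729 and 2937 units in ctrl cells. IRE1dn array 3 was the highest, while array 1 lay within the ctrl range. FAU, a ubiquitin-like protein fused to a small subunit protein, had 1675, 2103 and 1880 units in IRE1dn and 2439, 2264 and 2232 units in ctrl cells. The groups did not overlap, yet the log2 change of -0.30 (SE 0.13, adjusted p = 0.11 in limma) did not pass.

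RPL8, a large subunit protein near the peptidyl transferase centre, had 2506, 2596 and 2993 units in IRE1dn and 3249, 3047 and 3050 units in ctrl cells. It showed the same picture, with a log2 change of -0.21 (SE 0.12, adjusted p = 0.21 in limma). After quantile normalization both FAU (-0.37; limma adjusted p = 0.029) and RPL8 (-0.41; limma adjusted p = 0.0056) passed.

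The 5 members with the smallest changes were RPL37, RPL32, RPL24, RPL12 and RPS28, between -0.03 and 0.03 on the log2 scale. RPL37 had 2608, 2666 and 3238 units in IRE1dn and 2840, 2821 and 2819 units in ctrl cells, so the IRE1dn arrays lay on both sides of ctrl arrays that hardly differed among themselves. Its 95% interval from limma ran from -0.29 to 0.29. RPL24 had 2986, 3457 and 3185 units in IRE1dn and 3065, 3144 and 3571 units in ctrl cells, with full overlap and a 95% interval from -0.30 to 0.26.

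The largest positive changes, in members named after their values were seen, were RPS10 and RPL37A at 0.28 each, with SE 0.16 and 0.18. RPL37A had 3536, 4115 and 5890 units in IRE1dn and 3918, 3349 and 3648 units in ctrl cells. IRE1dn array 3 stood far above the rest, and IRE1dn array 1 lay within the ctrl range (limma adjusted p = 0.26). The other probe sets of RPL37A, with mean signals of 15.2 and 49.3 units, gave log2 changes of 0.60 and -0.42.

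Different probe sets of a gene did not always move alike. 19 members had at least 2 probe sets above the level tested, and in 12 of them all such probe sets had the same sign. RPL22 had 5, of which 4 had log2 changes of -0.37 to -0.33, while the other read 313, 349 and 370 units in IRE1dn and 203, 304 and 249 units in ctrl cells, a log2 change of 0.46. Of the 55 tested members, 12 were read from probe sets whose name ends in plain _at, 29 from _s_at and 14 from _x_at names. In this array maker's naming, _s_at probes can match related transcripts and _x_at probes can match unrelated ones. 2, 5 and 1 of these fell.

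With the plain probe sets alone, 21 members could be tested, and 1 rose and 4 fell. RPS21 rose by this reading, with 433, 416 and 435 units in IRE1dn and 356, 235 and 257 units in ctrl cells and a log2 change of 0.62 (SE 0.19, adjusted p = 0.029 in limma), whereas its brighter _s_at probe set gave 0.14 (SE 0.15; limma adjusted p = 0.50). Of all genes in that fit 16.7% were higher and 14.5% lower past the threshold, and its level for testing was lower, at 5.92 units. RPL39L, RPL26L1 and RPS16 fell, and the fourth was RPL10L, whose signals were above the usual level in ctrl cells alone. RPS16 had a log2 change of -0.40 (SE 0.12, adjusted p = 0.033 in limma) there and -0.11 (SE 0.16; limma adjusted p = 0.61) on its brighter probe set.

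Other genes of protein synthesis are given beside the members by the same fit. Of 16 other TOP mRNAs, among them initiation and elongation factors, 3 fell and none rose. That was 18.8% lower, close to the 16.5% of all genes. At an unadjusted p under 0.05 limma gave 1 higher and 5 lower, against 1720 and 1584 of all 7178 genes. The list's median change was 0.04 on the log2 scale, or -0.07 after quantile normalization. Those that fell were EIF3K (-0.71; limma adjusted p = 0.0076) and EIF3E (-0.53; adjusted p = 0.022), both subunits of initiation factor eIF3, and EEF1D (-0.50; adjusted p = 0.048), an elongation factor subunit. EEF1A1, the main elongation factor, chosen after its value was seen, had a log2 change of 0.11 (SE 0.15, adjusted p = 0.60 in limma). Over the settings tried 1 to 4 of these 16 genes fell. The count was 1 without IRE1dn array 1, IRE1dn array 2 or ctrl array 1, and 4 after quantile normalization or without IRE1dn array 3. After quantile normalization, with the mean of all probe sets or without IRE1dn array 1, 1 rose.

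Of 27 translation initiation factors none rose and 3 fell (11.1%), a share below the 16.5% of all genes that were lower. They were the eIF3 subunits EIF3M (-1.01; limma adjusted p = 0.0058) and EIF3G (-0.82; adjusted p = 0.0032), and EIF2B4 (-0.62; adjusted p = 0.035), a subunit of the exchange factor for eIF2. At an unadjusted p under 0.05 limma gave 1 higher and 8 lower, against 1720 and 1584 of all 7178 genes. The list's median was -0.23, but -0.14 with the mean of all probe sets, where 5 fell and 1 rose, and -0.10 without ctrl array 2. Between 2 and 6 fell over the settings tried, with 6 under equal array medians, 5 without ctrl array 1 and 2 under the replicate block or without IRE1dn array 2 or 3.

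Of 40 ribosome biogenesis factors 14 fell (35.0%, against 16.5% of all genes) and none rose. The list's median change was -0.33 on the log2 scale. At an unadjusted p under 0.05 limma gave 0 higher and 18 lower, against 1720 and 1584 of all 7178 genes. Over the settings tried 10 to 19 fell, 10 without IRE1dn array 2, where 9.84% of all genes were lower, and 19 without ctrl array 1. Without ctrl array 2, 1 rose. RRP9, of the small nucleolar ribonucleoprotein that processes 18S ribosomal RNA, fell from 74.3 ± 15.9 to 22.8 ± 9.31 units (SD, n = 3 each). Its log2 change was -1.67 (SE 0.29, adjusted p = 0.0028 in limma). NPM3, a nucleolar histone chaperone, fell by 1.42 (limma adjusted p = 0.0047) and NIP7, a large subunit assembly factor, fell by 1.33 (limma adjusted p = 0.0026) on the log2 scale.

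Transcripts for the proteins of the mitochondrial ribosome come from nuclear genes and are translated in the cytosol. These transcripts were lower throughout. All 48 tested genes were lower in IRE1dn cells, with a median log2 change of -0.71. Past the threshold were 28 of them (58.3%, against 16.5% of all genes). Over the settings tried 19 to 32 fell, 19 without IRE1dn array 3, where 9.93% of all genes were lower, and 32 with equal array medians. 16 of 29 large and 12 of 19 small mitochondrial subunit genes fell. MRPS33 fell from 956 ± 417 to 337 ± 20.9 units (SD, n = 3 each; log2 change -1.41, SE 0.27; limma adjusted p = 0.0039), MRPL28 fell by 1.35 on the log2 scale (limma adjusted p = 0.0086), and MRPS28 fell by 1.19 (limma adjusted p = 0.00075). The median by array was -0.71, -0.62 and -0.69 on the IRE1dn arrays, so IRE1dn array 3 did not stand apart in this list. A TOP start was found in 4 of 45 of these genes. The difference between the cytosolic and mitochondrial lists was not tested.

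**Figure D4:**
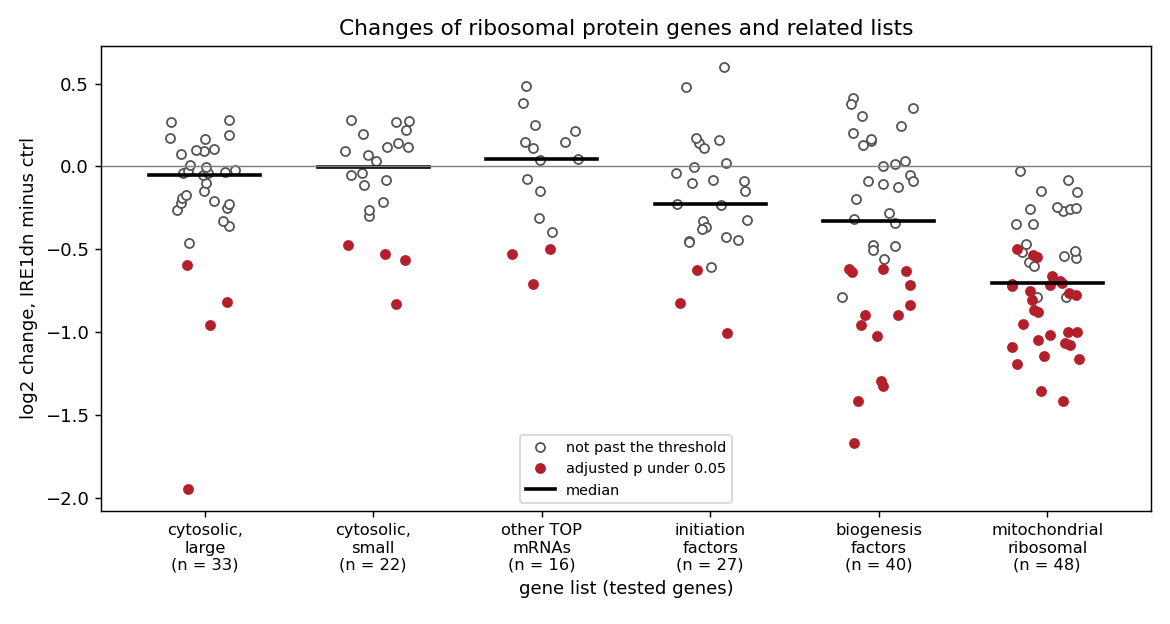
Log2 change (IRE1dn minus ctrl) of each tested gene in the cytosolic large and small subunit and in 4 related lists, filled red where the adjusted p was under 0.05, with bars at the medians. The medians run from 0.04 in the other TOP mRNAs to -0.71 in the mitochondrial ribosomal proteins, where no point lies above zero.

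Of 8 regulators of ribosome production that could be tested, 1 rose (12.5%) and none fell, against 17.9% and 16.5% of all genes. At an unadjusted p under 0.05 limma gave 2 higher and 2 lower, against 1720 and 1584 of all 7178 genes. The count that rose was 2 after quantile normalization, with a pseudocount of 16, under the replicate block and without ctrl array 2 or 3. In these fits 16.4% to 19.6% of all genes were higher. 1 fell without ctrl array 3, with equal array medians or with the mean of all probe sets. There 16.2% to 18.6% of all genes were lower. MXI1, a repressor that competes with MYC proteins for MAX, rose from 70.2 ± 18.2 to 258 ± 41.03 units (SD, n = 3 each; log2 change 1.87, SE 0.23; limma adjusted p = 0.00043). MYC, an activator of ribosome production, was just outside the threshold, with 347, 502 and 465 units in IRE1dn and 152, 287 and 338 units in ctrl cells. The groups did not overlap, and the log2 change was 0.81 (SE 0.29, adjusted p = 0.051 in limma). LARP1, the TOP-binding protein, like MYC chosen after its values were seen, had 651, 639.9 and 782 units in IRE1dn and 329, 692 and 544 units in ctrl cells. These overlapped, and the log2 change was 0.46 (SE 0.25, adjusted p = 0.18 in limma).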

How the data were processed

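RNA of 6 samples of cultured cells was hybridised, 1 array each, as biotin-labelled complementary RNA on Affymetrix arrays, per the labels' protocols. The authors deposited linear signal intensity per probe set, already scaled to a trimmed mean of 100.03 (2% at each end). The scaling hides any change shared by all transcripts. GCOS 1.2, the array maker's software, is named per the submitters' processing notes. The sources used here do not name the summarisation or background steps. The number of arrays limits the precision.

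Intensities were taken to log2(signal + 1.75), the 20th percentile, so fold changes of dim genes are understated. Gene names came from the platform annotation: of 22277 probe sets 19064 had 1 symbol (19052 matched to RefSeq of GRCh38.p14), 1043 several, 2108 no listed gene and 62 were controls. The brightest probe set per gene was kept, and 7178 of 11963 genes with a mean log2 signal above the 40th percentile (equal to 12.97 units) were tested with limma 3.58.1 in R 4.3.3 (lmFit, eBayes with trend, two-sided, Benjamini-Hochberg, 0.05), tested on simulated data. Changes are IRE1dn minus ctrl.

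Members and lists were chosen with earlier results of these data known. The genes named are those that passed (up to 8 each way), the 5 smallest changes, paralogs and partners, stalk proteins, FAU, RPL8, RPL11, RPS6, RPS14 and RPS19, and up to 3 changed genes per list. RPS4Y1 is counted and given no level. Replicate numbers did not pair the arrays: same-numbered arrays' deviations correlated at -0.10, 0.06 and 0.02. The alternatives varied the pseudocount, filter, scaling, probe set choice, variance model and array weights, added a replicate block, or left out an array.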

Additional observations from a re-analysis of the deposited data

How the results depend on the processing

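Quantile normalization moved the counts most: 20 members fell, 12 large and 8 small, and the small subunit median was -0.20. With probe sets ending in plain _at alone, 21 members were tested, 1 rose and 4 fell, of which the small subunit had 1 each way. Without the paralogs, an alternative chosen after seeing the data, 5 fell (9.8%, against 16.5% of all genes), 2 of them large. With 1 array left out at a time, 4 to 9 members fell, 3 to 5 large and 1 to 4 small, and the median ran from -0.17 to 0.02. The replicate block gave 8 lower members, 4 large and 4 small, and changed no call of the 8. The same counts came from both other pseudocounts, equal array medians and robust eBayes. The other settings gave 7 to 9. Adding genes whose probe sets also list small RNAs they host, also chosen after seeing the data, gave 68 tested members. Of these 10 fell and none rose. That is 14.7% lower, against 16.6% of all genes in that fit, where 17.8% were higher. Of named genes, RPL35A turned to 0.31 with the mean of all probe sets. RPS6 did not pass there (limma adjusted p = 0.073) or without the filter (0.051), nor RPS27L without the intensity trend (0.051). The causes were not tested. Of the 8 genes, 4 passed in all 6 fits that left out an array. The change of dim RPL27A (log2 change -0.36, SE 0.32) could not be resolved with 3 arrays a group.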
